A study of Mus musculus with 2 samples.

Results

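Small leucine-rich proteoglycans are secreted proteins built around a chain of leucine-rich repeats, most of them carrying glycosaminoglycan chains. The 7 genes described here are Aspn (asporin), Lum (lumican), Dcn (decorin), Bgn (biglycan), Ogn (osteoglycin, also called mimecan), Fmod (fibromodulin) and Prelp, and they were taken as the rows whose symbol equals one of these names, 7 of 27998 genes in the count matrices. They were measured by droplet single-cell RNA sequencing of the pancreas of C57BL/6 mouse embryos at embryonic day 13.5, in a series about the Trithorax group, whose complexes methylate histone H3 and include the Dpy30 protein. One library came from 1 embryo titled knockout, whose pancreas the series text calls Dpy30∆P, and the other from 1 embryo titled control. The sources used here do not give the allele, the Cre driver, the cells in which it acts or the genotype of the control. Live, 7-AAD-negative single cells of the whole dissociated organ were loaded, so no cell type was selected. With a single library and embryo per group, differences between the libraries have no replicate check and were not tested, and every interval (95%) covers counting error only.

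In connective tissue the family binds collagen fibrils and sets their width and spacing. Decorin, biglycan and asporin form one class, in which decorin and biglycan carry chondroitin or dermatan sulfate chains and asporin a stretch of aspartic acid. Lumican, fibromodulin and Prelp form a class associated with keratan sulfate and fibril assembly, and osteoglycin belongs to another. Decorin, biglycan and asporin also bind growth factors of the TGF-beta family. In the embryonic pancreas, fibroblast-like mesenchyme and the mesothelium that covers the organ are sources of such matrix.

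The members lie in clusters in the mouse genome (build GRCm38). Dcn (chromosome 10, 97479609 to 97518143, plus strand) is followed after 47.0 kb by Lum (chromosome 10, 97565128 to 97572703, plus strand), with 0 protein-coding genes between them. Aspn (chromosome 13, 49544443 to 49567565, plus strand) and Ogn (chromosome 13, 49608046 to 49624501, plus strand) are 40.5 kb apart with Omd, another family member, between them. Prelp (chromosome 1, 133910304 to 133921414, minus strand) and Fmod (chromosome 1, 134037254 to 134048277, plus strand) are 116 kb apart with 0 protein-coding genes between. Bgn stands alone among the members (chromosome X, 73483602 to 73495933, plus strand). The gene Cenpp runs on the minus strand across both Aspn and Ogn, and no source used here states whether reads were counted by strand. Cenpp itself had 237 UMIs in collagen-gated cells of the knockout-labelled library and 239 in those of the control library.

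The promoters of Aspn, Ogn and Bgn are shown because Aspn and Ogn had the largest differences between the libraries and Bgn the smallest of the 5 members measured in collagen-gated cells. Each is the 250 bases before the RefSeq start (GRCm38.p6), 5′ to 3′ on the gene's strand. Capitals mark TATAAA and GGGCGG on either strand, with overlapping matches run together. The Aspn stretch is chr13:49544193-49544442, the Ogn stretch chr13:49607765-49608014 and the Bgn stretch chrX:73483351-73483600, all on the plus strand.
Aspn: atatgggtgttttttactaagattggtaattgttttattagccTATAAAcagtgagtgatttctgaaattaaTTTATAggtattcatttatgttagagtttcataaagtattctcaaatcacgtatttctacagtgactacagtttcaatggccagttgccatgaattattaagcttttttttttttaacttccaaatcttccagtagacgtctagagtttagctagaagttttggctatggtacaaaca
Ogn: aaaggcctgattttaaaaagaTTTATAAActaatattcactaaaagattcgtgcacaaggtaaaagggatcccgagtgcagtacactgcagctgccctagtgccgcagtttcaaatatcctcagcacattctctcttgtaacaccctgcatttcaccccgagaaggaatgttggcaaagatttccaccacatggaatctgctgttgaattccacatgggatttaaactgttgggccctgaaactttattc
Bgn: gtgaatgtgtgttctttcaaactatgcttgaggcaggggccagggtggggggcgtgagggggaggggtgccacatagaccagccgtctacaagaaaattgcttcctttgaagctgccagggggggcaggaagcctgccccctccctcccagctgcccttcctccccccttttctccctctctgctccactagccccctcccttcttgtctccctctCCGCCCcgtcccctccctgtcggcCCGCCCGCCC
TATAAA occurs 2 times in the Aspn stretch, 207 and 178 bases before the start, and 2 times in Ogn, where the matches 229 and 227 bases before the start overlap on opposite strands. It occurs in none of the Bgn stretch, which holds 3 matches of GGGCGG, 34, 10 and 6 bases before the start. Among 27025 promoter stretches of the same length, 13.0% hold TATAAA and 32.9% hold GGGCGG. G and C make up 30% of the Aspn stretch, 42% of the Ogn stretch and 64.4% of the Bgn stretch, against a median of 52% over all promoters. A match is a description of letters, not a site shown to be used.

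Cells were sorted into classes by the UMIs (unique molecular identifiers, 1 per captured transcript molecule) of marker genes that include no member. Collagen-gated cells hold at least 3 UMIs of Col3a1 plus Col1a2 and pass none of the gates for mesothelium, endothelium, epithelium, immune or neural cells. The knockout-labelled library kept 2938 of 3044 barcodes and the control library 3749 of 3900, with medians of 8006.5 and 6769 UMIs per kept cell, and 22 barcode sequences occurred in both. Collagen-gated cells numbered 1952 (66.4%) in the knockout-labelled library and 2444 (65.2%) in the control library. The mesothelium, endothelium and epithelium gates held 167, 34 and 457 cells in the knockout-labelled library and 184, 32 and 728 in the control library. Some markers not used in the gates followed them: Wt1, a mesothelial transcription factor, stood at 187 CPM (counts per 1000000 UMIs of the class) in the knockout-labelled mesothelium gate and 173 CPM in the control one, Emcn at 539 and 311 CPM in the endothelium gate and Krt8 at 549 and 754 CPM in the epithelium gate. Others were shared. Krt18, a check of epithelium, stood at 112 and 115 CPM in the mesothelium gate. Krt7, a check of mesothelium, stood at 109 and 169 CPM in the epithelium gate. Dpy30 was not lower in knockout-labelled collagen-gated cells, at 112 CPM against 98.9 CPM in control ones, or in epithelium, at 266 CPM against 224 CPM. In the mesothelium gate it was lower, at 149.6 CPM (132 to 169) in the knockout-labelled and 180.3 CPM (161 to 201) in the control library. In the endothelium gate it stood at 119 and 122 CPM. A 3′ tag outside the deleted part does not check the label, and no source used here names that part. The embryos differed in sex, since Ddx3y, on the Y chromosome, had 0 UMIs in knockout-labelled collagen-gated cells and 63.5 CPM in control ones. The haemoglobin gene Hbb-bs stood at 755 CPM in knockout-labelled collagen-gated cells and 376 CPM in control ones.

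In collagen-gated cells, 5 members had a mean of at least 10 CPM over both libraries. Of these, 4 were at least 1.5-fold lower in the knockout-labelled library: Aspn, Ogn, Lum and Dcn. Bgn was nearly level. Taken as a sum, the 7 members gave 449 CPM (438 to 459) in knockout-labelled collagen-gated cells and 637 CPM (624 to 649) in control ones, a log2 ratio of -0.51 (-0.55 to -0.46). Among all 7261 genes with a mean of at least 10 CPM, 2.74% differed by at least 1.5-fold, 1.56% being lower in the knockout-labelled library and 1.18% higher, with a median log2 ratio of -0.02. Of the members, 4 were lower by that rule and 0 higher, with a median log2 ratio of -0.66; Fmod and Prelp were below the level filter.

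Decorin, the best known collagen-binding member, had 2398 UMIs in knockout-labelled collagen-gated cells and 3855 in control ones. Its level was 157 CPM (151 to 164) in the knockout-labelled library and 239.7 CPM (232 to 247) in the control library, a log2 ratio of -0.61 (-0.68 to -0.53). The threshold of 1.5-fold is close to this ratio, and 6 of 15 alternative settings took Dcn below it, among them gating on UMIs thinned to 3000 per cell (-0.48) and leaving out mitotic cells (-0.51). After thinning every cell to 3000 UMIs, which evens out depth, 26.4% of 1928 knockout-labelled and 37.3% of 2418 control collagen-gated cells held a Dcn UMI. The log2 ratio of these shares was -0.50, short of 1.5-fold. The knockout-labelled cells were the deeper ones, at a median of 7400.5 UMIs against 6082 in control cells, and without thinning the shares were 42.6% and 51.8%.

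Lumican, whose gene follows Dcn on chromosome 10, had 1213 UMIs in knockout-labelled collagen-gated cells and 2016 in control ones. That is 79.5 CPM (75.1 to 84.1) in the knockout-labelled library and 125 CPM (120.0 to 131) in the control library, a log2 ratio of -0.66 (-0.76 to -0.55). The thinned share of cells with a Lum UMI was 15.9% in the knockout-labelled library and 23.7% in the control library. The log2 ratio of these shares was -0.57, just short of 1.5-fold. In 3 of 15 alternative settings Lum was below the 1.5-fold mark, at the lowest -0.53 with gates on thinned UMIs.

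Asporin, the member with the aspartic acid stretch, showed the largest difference. It had 315 UMIs in knockout-labelled collagen-gated cells and 858 in control ones, 20.7 CPM (18.4 to 23.1) against 53.4 CPM (49.8 to 57.0), a log2 ratio of -1.37 (-1.56 to -1.18). A thinned Aspn UMI was found in 5.76% of knockout-labelled cells and 14.2% of control cells. Osteoglycin came next, with 244 UMIs in knockout-labelled collagen-gated cells and 531 in control ones, 16.0 CPM (14.1 to 18.1) against 33.0 CPM (30.3 to 36.0) and a log2 ratio of -1.05 (-1.27 to -0.82). Its thinned share was 4.20% in the knockout-labelled library and 9.22% in the control library, and a pseudocount of 20 CPM alone took its ratio below 1.5-fold (-0.56). The intervals of the Aspn and Ogn ratios overlap each other, and neither overlaps those of Lum, Dcn or Bgn.

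Biglycan, a close relative of decorin, had 2639 UMIs in knockout-labelled collagen-gated cells and 2928 in control ones. Its level was 173 CPM (166 to 179.7) in the knockout-labelled library and 182 CPM (176 to 189) in the control library, a log2 ratio of -0.07 with an interval that spans 0 (-0.15 to 0.003). The thinned share was 35.3% in knockout-labelled and 37.1% in control cells. Bgn is X-linked, and Xist, which silences an X chromosome in female cells, stood at 2490 CPM in knockout-labelled collagen-gated cells and 0.124 CPM in control ones; the part of the sex difference in the Bgn ratio was not tested.

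Fibromodulin and Prelp were scarce in collagen-gated cells. Fmod had 25 UMIs in the knockout-labelled library and 40 in the control library, 1.64 CPM (1.06 to 2.42) against 2.49 CPM (1.78 to 3.39), with a log2 ratio of -0.60 whose interval spans 0 (-1.38 to 0.15) and whose sign changed when cells that pass another gate were added (0.010) or gates were set on thinned UMIs (0.57). Wt1, Krt19 and Krt7, taken as checks of mesothelium, stood at 20.2, 10.2 and 8.39 CPM in the knockout-labelled collagen-gated cells. In the control ones they stood at 20.1, 6.90 and 7.52 CPM. Krt19 and Krt7 do not mark mesothelium alone, with 39.1 and 109 CPM in knockout-labelled and 63.5 and 169 CPM in control epithelium. The part of mesothelial RNA in the Fmod counts was not tested. Prelp had 9 UMIs in the knockout-labelled library and 10 in the control library, too few for a ratio.

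**Figure D1:**
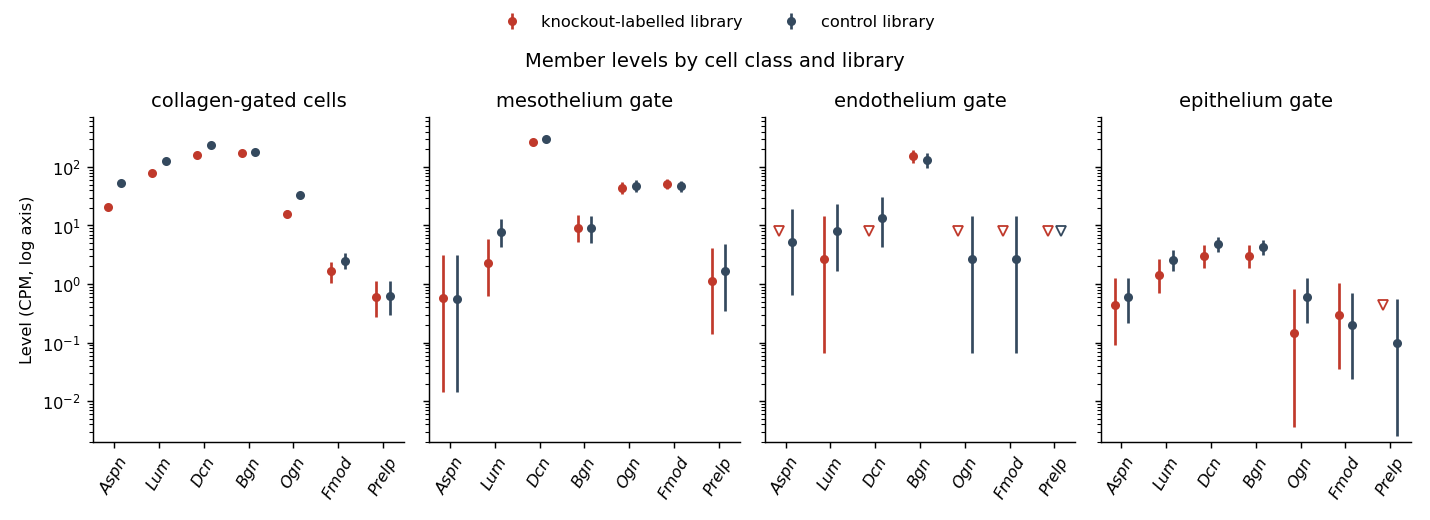
Level of each member in CPM (log axis) in collagen-gated cells and in the mesothelium, endothelium and epithelium gates, for the knockout-labelled library (red) and the control library (dark grey). Points are summed UMIs with exact Poisson 95% intervals, and an open triangle marks the limit that 3 counts would give where a member had 0 UMIs. Fmod is at 51.6 CPM in knockout-labelled and 46.5 CPM in control mesothelium, but at 1.64 CPM in knockout-labelled and 2.49 CPM in control collagen-gated cells.

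The makeup of the family's UMIs differed as well. In knockout-labelled collagen-gated cells Bgn made up 38.6% of the 6843 family UMIs and Dcn 35.0%. In control collagen-gated cells Dcn made up 37.7% of 10238 family UMIs and Bgn 28.6%. After thinning to 3000 UMIs per cell, the knockout-labelled library had 927 Bgn and 921 Dcn UMIs and the control library 1294 and 1770. Aspn made up 4.60% in the knockout-labelled library and 8.38% in the control library, and Ogn made up 3.57% in the knockout-labelled and 5.19% in the control library. Lum held 17.7% in the knockout-labelled and 19.7% in the control library. The counts are 3′ ends and were not scaled by gene length, so these shares are shares of captured molecules.

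**Figure D2:**
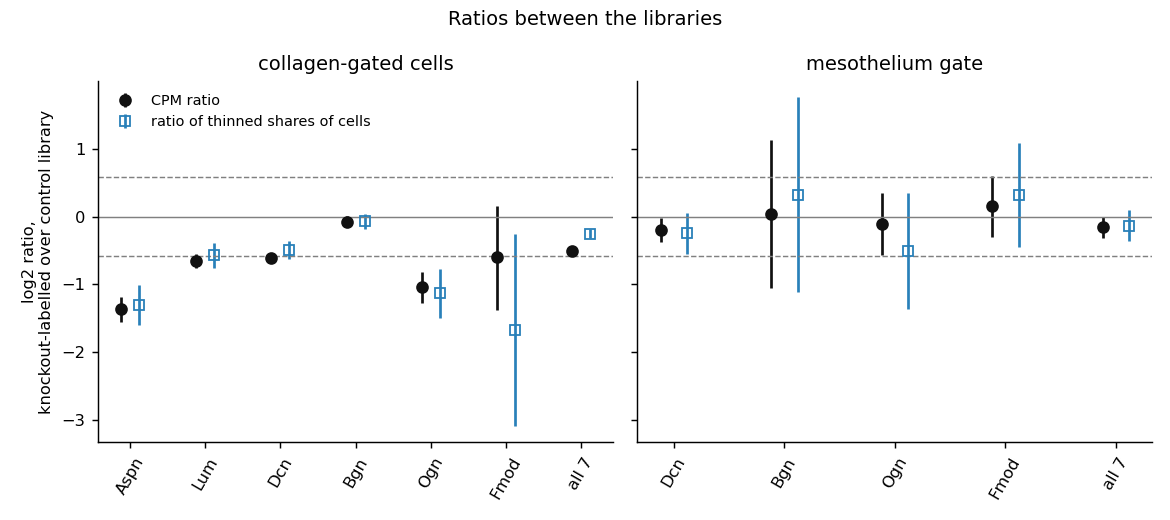
Log2 ratio of the knockout-labelled over the control library for each member with at least 20 UMIs and for the sum of all 7, in collagen-gated cells and in the mesothelium gate. Filled circles are ratios of CPM with exact 95% intervals, open squares are ratios of thinned shares of cells with log-normal 95% intervals, and dashed lines mark 1.5-fold. By CPM, Aspn lies at -1.37 and Bgn at -0.07 in collagen-gated cells, while Dcn, Ogn and Fmod lie between -0.20 and 0.15 in mesothelium. By thinned shares, Dcn, Ogn and Fmod lie at -0.25, -0.51 and 0.32 in mesothelium, with intervals that span 0.

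The mesothelium carried a different set of members: Dcn, Ogn and Fmod, with few UMIs of Lum, Bgn or Aspn. Dcn stood at 266 CPM (242 to 291) in the knockout-labelled mesothelium gate and 305 CPM (280.0 to 332) in the control one, a log2 ratio of -0.20 (-0.38 to -0.02). Its thinned share was 45.5% in knockout-labelled and 54.1% in control cells. Against collagen-gated cells of the same library, Dcn was 1.69-fold higher in the knockout-labelled mesothelium gate and 1.27-fold higher in the control one. Ogn stood at 44.1 CPM in the knockout-labelled mesothelium gate and 47.6 CPM in the control one, with a log2 ratio of -0.11 (-0.57 to 0.35). The thinned share of Ogn was 9.58% in knockout-labelled and 13.7% in control cells, a log2 ratio of -0.51 (-1.37 to 0.34).

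Fmod had the largest excess in mesothelium over collagen-gated cells. It had 90 UMIs in 167 knockout-labelled cells and 83 in 184 control cells, 51.6 CPM (41.5 to 63.4) against 46.5 CPM (37.0 to 57.6), a log2 ratio of 0.15 (-0.30 to 0.60). This was 31.5-fold (20.02 to 51.2) the level in knockout-labelled collagen-gated cells and 18.7-fold (12.7 to 28.0) that in control ones. A thinned Fmod UMI was found in 15.0% of knockout-labelled and 12.0% of control mesothelium cells. Lum had 4 UMIs in the knockout-labelled mesothelium gate and 14 in the control one, Bgn 16 and 16, Aspn 1 and 1 and Prelp 2 and 3. Among 7500 genes tested in mesothelium, 13.4% differed by at least 1.5-fold, 7.37% being lower and 6.04% higher in the knockout-labelled library, and of the 3 members measured there 0 passed in either direction.

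The endothelium held Bgn and little else of the family. Bgn had 57 UMIs in 34 knockout-labelled cells and 49 in 32 control cells, 151 CPM (115 to 196) against 130.1 CPM (96.2 to 172), a log2 ratio of 0.22 with an interval that spans 0 (-0.36 to 0.80). Dcn had 0 UMIs in knockout-labelled endothelium, which allows up to 7.96 CPM, and 5 in control endothelium. Bgn per 1000 UMIs of Col1a1 was 8143 in the knockout-labelled endothelium gate and 2130 in the control one, against 316 and 266 in collagen-gated cells. The endothelial ratios rest on 7 Col1a1 UMIs in the knockout-labelled and 23 in the control library, and the part of free RNA was not tested.

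Few member UMIs were found in epithelial cells. The 7 members together had 58 UMIs in 457 knockout-labelled cells and 132 in 728 control cells, 8.43 CPM against 13.0 CPM. After leaving out epithelial cells that also hold 3 or more collagen UMIs, the levels were 8.10 CPM in the knockout-labelled and 8.32 CPM in the control library. In the knockout-labelled epithelium 1.53% of thinned cells held a Dcn UMI and 1.09% a Bgn UMI, against 1.24% and 1.38% in control epithelium. Before thinning, epithelial cells had medians of 14626 UMIs in the knockout-labelled and 12436.5 in the control library. Per 1000 Col1a1 UMIs, Dcn was at 412 in knockout-labelled and 310 in control epithelium, against 287 and 350 in collagen-gated cells. Levels of Aspn, Ogn, Fmod and Prelp in epithelium were each below 1 CPM in both libraries.

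Within the collagen-gated cells the members differed in how far their UMIs were concentrated. The 10% of cells richest in a member held 65.4% of the thinned Dcn UMIs in the knockout-labelled library and 54.1% in the control library. For Lum these were 76.2% in the knockout-labelled and 65.9% in the control library, and for Bgn 47.5% in the knockout-labelled and 45.9% in the control library. Fewer UMIs raise this share by sampling alone. The knockout-labelled and control libraries had 921 and 1770 thinned Dcn UMIs and 478 and 972 of Lum, so the shares do not compare them. Within the knockout-labelled library, 921 Dcn UMIs were more concentrated than 927 Bgn UMIs. The highest count in 1 cell was 37 Dcn UMIs in the knockout-labelled library and 48 in the control library. No member was detected in 40.9% of knockout-labelled and 29.6% of control thinned cells. At least 3 members were found together in 113 of 1928 knockout-labelled cells (5.86%) and in 341 of 2418 control cells (14.1%), and 0 cells held 6 or 7.

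**Figure D3:**
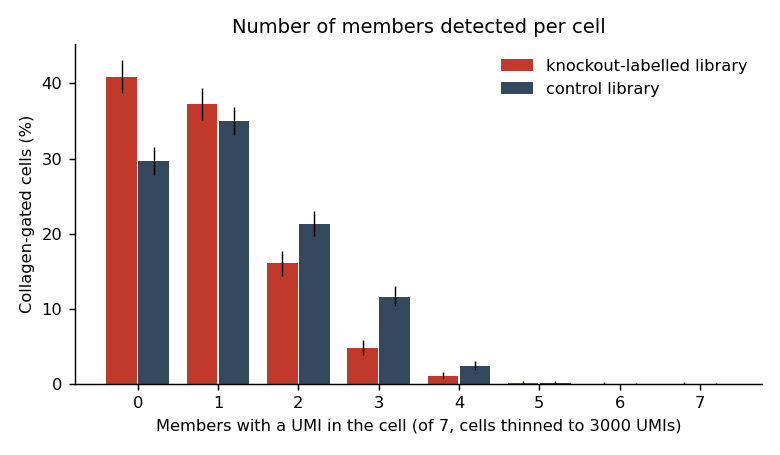
Share of collagen-gated cells (%) by the number of the 7 members with a UMI, after thinning each cell to 3000 UMIs, for the knockout-labelled library (red) and the control library (dark grey), with exact binomial 95% intervals. Cells with 0 members make up 40.9% of the knockout-labelled and 29.6% of the control library.

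Dcn and Lum had the highest correlation of the 21 pairs in both libraries. Among Lum-positive thinned cells 48.9% held a Dcn UMI in the knockout-labelled library, against 22.1% of Lum-negative cells. In the control library these shares were 59.2% and 30.5%. Across single cells, Pearson's r of Dcn and Lum was 0.30 in both libraries (1928 and 2418 cells, described without a test). Ogn followed Dcn: 8.25% of Dcn-positive against 2.75% of Dcn-negative cells held it in the knockout-labelled library, and 14.1% against 6.33% in the control library. For Ogn and its chromosomal neighbour Aspn, 12 of 111 Aspn-positive cells (10.8%) and 3.80% of Aspn-negative cells held Ogn in the knockout-labelled library, and 41 of 344 (11.9%) and 8.78% in the control library, with r of 0.083 in the knockout-labelled and 0.033 in the control library. The intervals of the shares among Aspn-positive cells were 5.71% to 18.1% in the knockout-labelled and 8.69% to 15.8% in the control library. Among Aspn-negative cells they were 2.97% to 4.78% and 7.59% to 10.1%. The Aspn-positive groups were far smaller, 111 and 344 cells against 1817 and 2074, which widens their intervals. Whether the Ogn difference between the libraries depends on Aspn was not tested. Ogn was found in about the same share of Bgn-positive as of Bgn-negative cells, with a ratio of 1.02 in both libraries. In mesothelium the pairs of Dcn, Ogn and Fmod had r between -0.062 and 0.021.

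**Figure D4:**
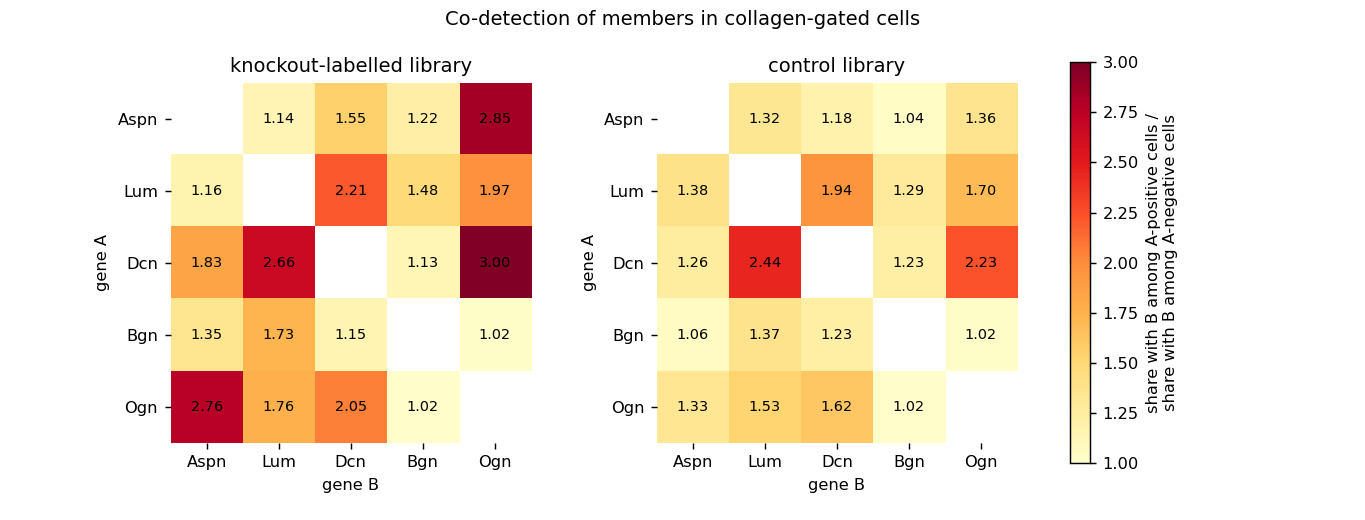
Ratio of the share of collagen-gated cells with gene B among cells with a UMI of gene A to that among cells without one, after thinning to 3000 UMIs, for 5 members in the knockout-labelled library (left) and the control library (right). Colour runs from 1 to 3, and for Lum as gene A and Dcn as gene B the ratio is 2.21 in the knockout-labelled and 1.94 in the control library.

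Lum, Dcn and Ogn were found in larger shares of cells with more collagen UMIs, while Bgn varied less. In cells with 0 to 2 thinned UMIs of Col3a1 plus Col1a2, Dcn was found in 22.2% of knockout-labelled and 27.1% of control cells. In cells with 10 or more, it was found in 68.4% of 38 knockout-labelled and 70.9% of 117 control cells. Lum was found in 10.2% of knockout-labelled and 15.1% of control cells of the lowest class, and in 57.9% of knockout-labelled and 56.4% of control cells of the highest. Ogn was found in 2.83% of knockout-labelled and 4.68% of control cells of the lowest class, and in 13.2% of knockout-labelled and 23.9% of control cells of the highest. Aspn stood at 4.37%, 6.68%, 6.93% and 5.26% in the knockout-labelled library from the lowest to the highest class, and at 8.75%, 14.5%, 19.2% and 21.4% in the control library. Bgn lay between 32.3% and 41.6% in the knockout-labelled and between 33.8% and 44.2% in the control library. The knockout-labelled library had more cells in the lowest class (778 of 1928) than the control library (663 of 2418). The gate was set on raw UMIs, and the knockout-labelled cells were deeper, at a median of 7400.5 UMIs against 6082. Deeper cells can pass it with a lower fraction of collagen UMIs. The part of this in the class sizes and in the member ratios was not tested. Col1a1, a collagen that chose no cells, had a log2 ratio of -0.32 in the same cells.

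**Figure D5:**
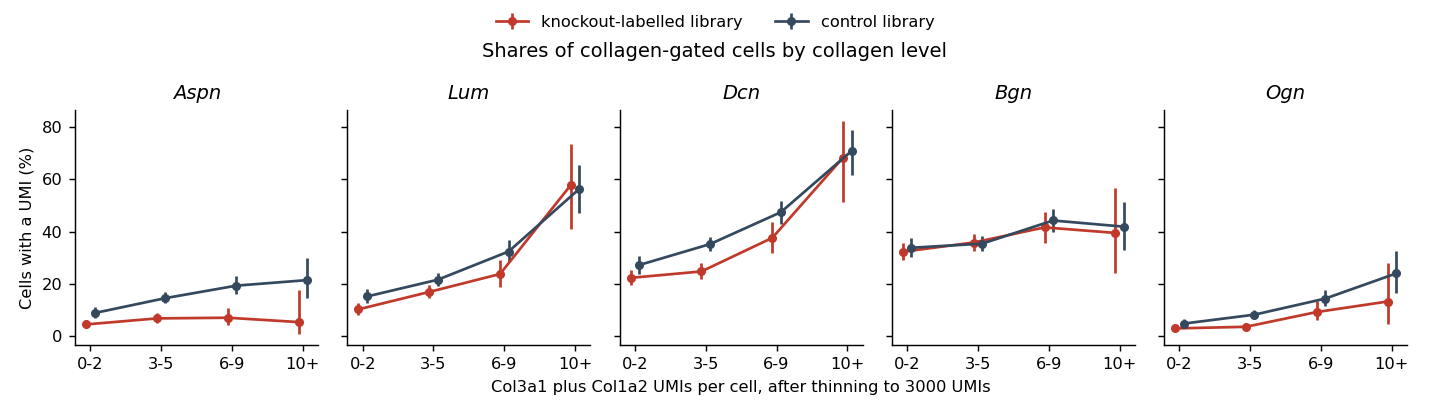
Share of collagen-gated cells (%) with a UMI of Aspn, Lum, Dcn, Bgn or Ogn by the cell's UMIs of Col3a1 plus Col1a2, after thinning to 3000 UMIs, for the knockout-labelled library (red) and the control library (dark grey) with exact binomial 95% intervals. Lum lies at 57.9% in the knockout-labelled and 56.4% in the control library in the class of 10 or more, and Aspn stays between 4.37% and 6.93% in the knockout-labelled library.

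The members also differed between subsets of collagen-gated cells. Mitotic cells were 22.9% of the knockout-labelled and 19.5% of the control cells. They were called on raw UMIs, and deeper cells, as in the knockout-labelled library, can reach the minimum more easily. The part of depth in these shares was not tested. Ogn was found in 1.13% of mitotic and 5.11% of other knockout-labelled cells, and in 3.40% of mitotic and 10.6% of other control cells. Aspn was found in 3.17% of mitotic and 6.52% of other knockout-labelled cells, and in 7.64% of mitotic and 15.8% of other control cells. Bgn was found in 38.3% of mitotic and 34.4% of other knockout-labelled cells, and in 36.5% of mitotic and 37.2% of other control cells. Cells with a UMI of Stmn2, a microtubule regulator, held Dcn in 58.2% of 141 knockout-labelled and 72.5% of 80 control cells, against 23.9% and 36.1% of cells without it. Dcn was lower in the knockout-labelled library in all 16 marker-positive or mitotic subsets measured, past 1.5-fold in 10, and Ogn in all 13, past 1.5-fold in 12. Aspn was lower in 12 of 13 and Lum in 13 of 14, while Bgn was lower in 14 of 16, past 1.5-fold in 3. The subsets share cells and come from the same libraries, so these counts largely restate the overall ratios, and some intervals span 0, such as those of Dcn in cells with Acta2, Isl1, Thy1 or Wt1.

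Genes outside the family were ranked for likeness to each member by the lower of the r values of both libraries across collagen-gated cells. First for Dcn were S100a10 (r of 0.37 in the knockout-labelled and 0.36 in the control library), Sparc, a collagen-binding matrix protein (0.40 and 0.35), and Plac8 (0.36 and 0.34). For Lum they were Plac8 (0.34 and 0.27), Lgals1, the lectin galectin-1 (0.25 and 0.28), and Figf (0.25 and 0.24). For Bgn they were Gnas (0.25 and 0.22), Cxcl12, a chemokine (0.19 and 0.17), and Nrp1 (0.24 and 0.16). Aspn reached only 0.14 and 0.18 with its nearest gene, Meg3, then 0.14 and 0.15 with Malat1 and 0.13 and 0.15 with Rps27. These are abundant transcripts, at 5824, 22733 and 7524 CPM in knockout-labelled collagen-gated cells. Cxcl12 ranked lower with Dcn and Lum by this rule but had the higher r of 0.41 and 0.36 with them in the knockout-labelled library, against 0.32 and 0.24 in the control library. These r describe 1952 knockout-labelled and 2444 control cells, which share depth.

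The matrix genes around the family, in lists chosen with earlier results of these data known, had smaller medians. Over all 7261 genes measured, 1.56% were at least 1.5-fold lower in the knockout-labelled library. To any degree, 3961 were lower and 3300 higher. Of 29 genes of collagen fibrils and their partners, 27 were measured, with a median log2 ratio of -0.27. To any degree, 24 of the 27 were lower and 3 higher. At least 1.5-fold, 3 were lower and 0 higher. Those past 1.5-fold were Col6a1, a chain of collagen VI, at 78.4 CPM in knockout-labelled cells and 166 CPM in control cells (-1.08), Col6a2 at 77.4 and 125 CPM (-0.70), and Lox, which crosslinks collagen, at 8.72 and 15.8 CPM (-0.86). The most abundant, Sparc and the collagen chaperone Serpinh1, had log2 ratios of -0.24 and -0.15. Col3a1 and Col1a2, also listed, had chosen the cells. Among 31 enzymes that build glycosaminoglycan chains, 15 were measured and 0 passed 1.5-fold in either direction, with a median of -0.08; Papss1 and Ugdh, which supply sulfate and sugar donors, had log2 ratios of 0.11 and 0.10. Of 16 genes of TGF-beta signalling and storage, 10 were measured, 1 was at least 1.5-fold lower and 0 higher, with a median log2 ratio of 0.01; Tgfbi and Tgfbr1 had log2 ratios of -0.25 and 0.03. Of 9 receptors named for the family, 3 were measured and 0 passed, with log2 ratios of -0.11 for Itgb1 and -0.23 for Lrp1. Of 19 other proteoglycans, 10 were measured and 1, Gpc4, was lower (16.1 CPM in knockout-labelled and 26.1 CPM in control cells, -0.70), while Gpc3 and Gpc6 had log2 ratios of 0.22 and 0.26. Of 11 other family members, 0 reached the level filter.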

How the data were processed

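Sample titles gave the groups. The deposited values are UMI counts per gene and barcode made from 10x Chromium 3′ version 2 libraries, per the labels' protocols, and the submitters' processing notes name Cell Ranger, Seurat 2 and 3 and the genome GRCm38 (mm10) without a role. No source used here names the annotation release. From the deposited counts, cells were kept from 500 genes and 1000 UMIs upward if mitochondrial UMIs did not exceed 10%, which removed 32 knockout-labelled and 29 control barcodes. A score from simulated doublets (2 per cell) then removed 74 knockout-labelled and 122 control cells, 0.8% per 1000 barcodes. Gates used raw UMIs of at least 3: Upk3b, Upk1b, Lrrn4 and Msln for mesothelium, Pecam1, Cdh5, Kdr, Cldn5, Esam and Plvap for endothelium, Epcam, Cdh1, Cldn6 and Cldn7 for epithelium and Ptprc, Tyrobp, Fcer1g and Csf1r for immune cells. Cells of a further, neural gate were also set aside, and some of its markers and some genes of the lists are not reported here. A cell that passed 2 or more was left out.

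For each class and library the summed UMIs were expressed as CPM over all genes, with exact Poisson intervals. Ratios are log2 of the CPM ratio without a pseudocount, for genes with at least 20 UMIs over both libraries, with exact conditional binomial intervals. Shares of cells were computed after thinning to 3000 UMIs (seed 1), which left out shallower cells, 24 knockout-labelled and 26 control collagen-gated ones, with exact Clopper-Pearson intervals and log-normal intervals for their ratios. All are at 95% and cover counting error alone. For 0 UMIs the limit is 3 counts over the total. Mitotic cells held at least 3 UMIs over Top2a, Mki67, Cenpf, Ccnb1, Ube2c and Hmmr. A gene was called at 1.5-fold with a mean of at least 10 CPM over both libraries.

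The members, gates and gene lists were chosen with earlier results of these data known. The genes named are the 7 members, the 3 genes most correlated with each member found in at least 5% of thinned cells of both libraries, and from each list those past 1.5-fold and the 2 most abundant, apart from the genes not reported here. Correlated genes were ranked by the lower of the r values of both libraries, over cells of the collagen gate. Ogn, Fmod and Prelp did not reach that share. The ratio intervals and fold calls were tested on Poisson counts drawn per library without single cells, and thinning on a simulated matrix. Gating, doublet removal, shares of cells, co-detection and subsets were not simulated. A deposited table of cluster genes and protein sequences were not used here. Promoters and motifs came from RefSeq tables, matched by symbol for 5 of the 7 members. Python 3.11.15, numpy 2.4.6, scipy 1.17.1, pandas 2.3.3 and scikit-learn 1.9.0 were used. The alternatives varied gates, cell filter, doublet removal, scaling, thinning, mitotic cells, pseudocount and gene filter. A second thinning seed and equal collagen classes were added after seeing the data.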

Additional observations from a re-analysis of the deposited data

Results flagged for a closer look

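The ratio of Fmod between the libraries had opposite signs in mesothelium and in collagen-gated cells, with log2 0.15 in mesothelium and -0.60 in collagen-gated cells. Both intervals span 0, and the difference between the classes was not tested. Bgn likewise had log2 ratios of 0.03 in mesothelium and 0.22 in endothelium but -0.07 in collagen-gated cells. Mesothelium held 16 Bgn UMIs in the knockout-labelled and 16 in the control library, endothelium 57 and 49, and these differences were not tested either.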

How the results depend on the processing

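Of 202 values recomputed under alternative settings, 167 stayed within their counting interval (within 1.5 times, for counts of genes) and 3 of Fmod changed sign. The share ratio of Bgn, whose interval spans 0, also changed sign without doublet removal (0.02) and without thinning. The log2 ratio of levels was past 1.5-fold in 15 of 15 alternatives for Aspn, 14 for Ogn, 12 for Lum, 9 for Dcn, 1 for the sum of the members and 0 for Bgn. The log2 ratio of shares of cells was past it in 13 of 13 alternatives for Aspn, 13 for Ogn, 5 for Lum, 1 for Dcn and 0 for Bgn. With a minimum of 1 UMI for the other lineages, Lum stood at -0.79, Dcn at -0.79, Ogn at -1.36 and the sum at -0.63. With gates on thinned UMIs, Lum stood at -0.53, Dcn at -0.48, the sum at -0.43 and Fmod at 0.57, with 0.098 for its share. With every cell of 3 or more collagen UMIs, Dcn stood at -0.53 and Fmod at 0.010, with -0.17 for its share. Without mitotic cells Dcn stood at -0.51. On cells thinned to 3000 UMIs, Bgn stood at -0.15, Ogn at -1.31, Fmod at -1.67 and the sum at -0.58. A pseudocount of 20 CPM gave -0.85 for Aspn, -0.55 for Lum and -0.56 for Ogn. Without thinning, the log2 ratios of shares were -0.98 for Aspn, -0.39 for Lum, -0.28 for Dcn, 0.12 for Bgn, -0.65 for Ogn and -0.24 for Fmod. The share of Lum at equal collagen classes gave -0.36. The share of Ogn gave -0.73 without doublet removal and -0.76 with thinning to 5000 UMIs, and that of Fmod -0.22 with 2 times the doublet rate. Thinned Fmod values rest on cells with 1 UMI, 5 in the knockout-labelled and 20 in the control library, and its share ratio of -1.67 was -0.31 with a second thinning seed and -0.33 without doublet removal. Genes past 1.5-fold numbered 199, against 116 with a pseudocount of 5 CPM, 44 with 20 CPM, 45 at a mean of at least 50 CPM and 3013 without a level filter. The control epithelial level of the members was 8.32 CPM without collagen-positive cells. The cause was not tested. No paired analysis was possible because each group has 1 library. With 1 embryo a group, variation between embryos, sex and handling cannot be told apart from genotype, and Fmod and Prelp are limited by counts in collagen-gated cells.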

Other observations

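Immune-gated cells had 0 UMIs of the 7 members in the knockout-labelled library and 6 in the control library. The gate held 20 knockout-labelled and 81 control cells, and 0 UMIs in the former allow up to 12.6 CPM, so these counts show no difference. Cells that passed no gate had 298 UMIs of the 7 members in the knockout-labelled library and 301 in the control library, 193 and 233 CPM, with Bgn at 98.2 CPM in the knockout-labelled and 98.1 CPM in the control library. Podn, a further leucine-rich repeat proteoglycan, had 41 UMIs in the knockout-labelled mesothelium gate and 28 in the control one, 23.5 against 15.7 CPM, and 12 and 17 UMIs in the larger collagen-gated class.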
